A study of Mus musculus with 12 samples.

Results

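Glycolysis and the response to low oxygen were followed through 34 genes in PB3 mouse breast cancer cells and in 3 drug-selected derivatives of them. The genes were picked by name, as glucose and lactate transporters, the enzymes of glycolysis and well-known genes of the hypoxia response. All 34 were found among the 55573 genes of the deposited tables, and all 34 passed the filter on low counts that left 14226 genes to test. The study read polyadenylated RNA from 12 libraries of cultured cells, in 4 groups of 3. Control is PB3-Parental, labelled Untreated. ERI-R (PB3-ERI-R), PAC-R (PB3-PAC-R) and VIN-R (PB3-VIN-R) are derivatives labelled with eribulin (spelled Erubilin), paclitaxel and vinorelbine, and the protocol gives 300, 500 and 800 nM for each drug. All 4 groups carry the label Er-/Pr-/Her2- and shared a medium with serum. Eribulin and vinorelbine block the growth of microtubules, and paclitaxel stabilises them. There is 1 derivative per drug, the protocol speaks of clones without giving their number, and the labels do not say whether drug was present at harvest. Nothing in the labels says that the 3 libraries of a group came from separate cultures, so p-values measure the spread between these libraries, which may be technical.

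Glycolysis splits glucose into pyruvate in the cytosol, and cancer cells often turn much of that pyruvate into lactate even when oxygen is present. The hypoxia-inducible factors (HIFs) join an unstable alpha subunit, such as HIF-1α from Hif1a, to a stable partner. With oxygen, the prolyl hydroxylases of the Egln genes mark the alpha subunit for destruction, and without it the factor accumulates and switches on genes for glucose uptake, glycolysis, blood vessel growth, acid balance and mitochondrial turnover. HIF-1α is controlled mainly as a protein, so its mRNA is no measure of its activity.

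The libraries held between 11141028 and 13454395 expected counts. Levels are given as CPM, counts scaled to a common library size with TMM factors, and differences as log2 fold changes, and values listed for a group are in the order of its replicate numbers. In 8 libraries the macrophage gene Lyz2 lay above 100 CPM, and in the other 4 (ERI-R 3, PAC-R 3, VIN-R 3 and Control 1) it was 0. The sum of 18 macrophage and leukocyte markers ran from 910 to 6210 CPM in VIN-R alone and reached 6620 CPM in PAC-R 1, with no marker at 0 in any of the 8 libraries. In the other 4 the sum was 19.2 CPM in Control 1, 167 in ERI-R 3, 42.7 in PAC-R 3 and 34 in VIN-R 3, with 11 to 14 of the 18 markers at 0. These 2 kinds of library are called libraries with and without macrophage RNA. Every group had 2 with and 1 without, so the division does not follow the groups. ERI-R 3 also stood apart in its ribosomal protein share, 16.7% of counts against 3.84% to 9.01% in the other 11. Of the receptors named in the label, Esr1 lay between 5.05 and 14.3 CPM, Pgr between 0 and 8.61, and Erbb2 between 16.8 and 52.8. ERI-R also differed in markers of epithelial and mesenchymal cells. Of 5 epithelial markers, 3 lay above the other 9 libraries in all 3 ERI-R libraries. The adhesion gene Cdh1 read 94.4 to 320 CPM in ERI-R and at most 12.9 elsewhere, Epcam 228 to 244 against at most 10.2, and the basal keratin Krt14 129 to 924 against at most 5.70. The keratins Krt8 and Krt18 went the other way in ERI-R 1 and 2, which lay below the other 9 libraries, while ERI-R 3 did not. Krt8 read 177, 336 and 918 CPM in ERI-R and 525 to 2449 elsewhere, and Krt18 123, 187 and 879 against 742 to 2406. The sum of the 5, in which Krt8 and Krt18 weigh most outside ERI-R, overlapped, with 984 to 3044 CPM in ERI-R and 1280 to 4857 elsewhere. All 3 mesenchymal markers lay below, and their sum was 693 to 1762 CPM in ERI-R against 8630 to 12044 elsewhere, with Vim at 19.1 to 276 against 2253 to 4195. Every difference between ERI-R and another group given below goes with these markers, and their part in it was not tested. In bulk RNA, fewer cells of a type and less RNA per cell cannot be told apart.

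On the deposited TPM, which are scaled per transcript length and allow different genes to be set side by side, glycolytic enzymes and Ldha led. Gapdh had a median of 3532 TPM over the 12 libraries, followed by Pkm with 1277, Eno1 with 1004, Ldha with 995, Aldoa with 853 and Pgk1 with 758. The glucose transporter Slc2a1 stood at 76.9 TPM and Hif1a at 106. The lowest were Pfkfb4 with 3.80 TPM, Eno2 with 2.1 and Adm with 1.71.

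HIF binds DNA at the core letters ACGTG or GCGTG, so the start regions of the members were read for them. RefSeq windows of GRCm38.p6, 250 bases before to 50 after each start, were found for 33 of the 34 members, 47 windows in all. ACGTG on either strand stood in 55.3% of those 47 windows and in 19.6% of all 32851 windows of that length. GCGTG stood in 57.4% against 32.4%, and at least 1 of the 2 in 80.9% against 43.8%. Member windows were also richer in CG pairs, with a median of 20 against 7. Among windows with at least 15 CG pairs, either core stood in 84.4% of 32 member windows and 71.4% of 11378 windows of all genes, ACGTG in 62.5% against 28.4%, and GCGTG in 56.3% against 60.6%. Upstream stretches that no annotated exon covers are printed here for 5 genes that passed the test in ERI-R, to set those that rose beside those that fell. They read 5′ to 3′ on the gene's strand in GRCm38.p6, and capitals mark either core, read on either strand.
Slc2a1 (fell against both other derivatives; chr4:119108561-119108710, plus strand): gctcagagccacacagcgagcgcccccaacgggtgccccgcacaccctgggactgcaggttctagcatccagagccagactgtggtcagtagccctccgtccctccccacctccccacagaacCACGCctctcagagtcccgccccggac
Adm (fell against VIN-R; chr7:110627507-110627656, plus strand): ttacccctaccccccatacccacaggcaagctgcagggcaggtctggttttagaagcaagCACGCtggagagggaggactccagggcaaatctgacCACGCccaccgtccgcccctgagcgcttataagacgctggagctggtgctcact
Ddit4 (rose; chr10:59951835-59951984, minus strand): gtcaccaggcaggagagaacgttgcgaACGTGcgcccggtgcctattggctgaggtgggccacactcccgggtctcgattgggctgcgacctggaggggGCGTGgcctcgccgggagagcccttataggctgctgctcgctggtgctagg
Aldoc (rose; chr11:78322823-78322967, plus strand): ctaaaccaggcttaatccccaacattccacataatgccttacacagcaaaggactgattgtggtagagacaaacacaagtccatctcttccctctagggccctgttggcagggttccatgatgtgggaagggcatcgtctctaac
Eno2 (fell against Control; chr6:124769674-124769823, minus strand): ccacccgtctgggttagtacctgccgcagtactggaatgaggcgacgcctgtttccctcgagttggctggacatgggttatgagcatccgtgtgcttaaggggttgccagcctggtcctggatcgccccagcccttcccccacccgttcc
The Ddit4 stretch holds a match of each core, Slc2a1 holds 1 and Adm 2 matches of GCGTG, and the stretches of Aldoc and Eno2 hold none. The Slc2a1 and Ddit4 stretches end 34 and 64 bases before the RefSeq start. Over their whole start windows the 2 genes were alike, each with 1 match of ACGTG and 1 of GCGTG. The Aldoc stretch ends 105 bases before the RefSeq start, and the 2 start windows of Aldoc hold 1 match of ACGTG and 3 of GCGTG, while that of Eno2 holds none. A match is a description of letters, and its absence says only that these letters are not in the stretch shown.

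The comparison of each derivative with Control asks what the resistant cells express differently. In ERI-R the members split. Aldoc, Higd1a and Ddit4 rose and Eno2 fell, 4 of 34, where 19.2% of all genes tested were called (9.51% higher, 9.69% lower; edgeR quasi-likelihood test, Benjamini-Hochberg adjusted p under 0.05). The share of members called was thus below that of all genes. Their median log2 fold change was 0.04, with 18 positive and 16 negative, against -0.0044 over all genes tested. The 3 ERI-R libraries lay wholly above the 3 Control libraries for 3 members and wholly below for 6 (Slc2a1, Hk1, Eno2, Vegfa, Adm and Pfkfb4), beside 16.4% and 19.3% of all genes. With presence of macrophage RNA as a term in the fit, 8 members were called, beside 31.2% of all genes. The added 4 were all lower: Slc2a1 (log2 fold change -0.75, adjusted p 0.029), Pfkfb4 (-1.31, 0.034), Vegfa (-1.55, 0.012) and Adm (-3.31, 0.036). DESeq2 called 7, beside 25.2%, and a fit of the 8 libraries with macrophage RNA 2, beside 22.7%. Leaving out single libraries gave from 1 (without Control 3) to 7 (without ERI-R 1) members called. Of all genes, 1866 and 2868 were called in those 2 fits, and 2732 in the fit of 12 libraries.

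**Figure D1:**
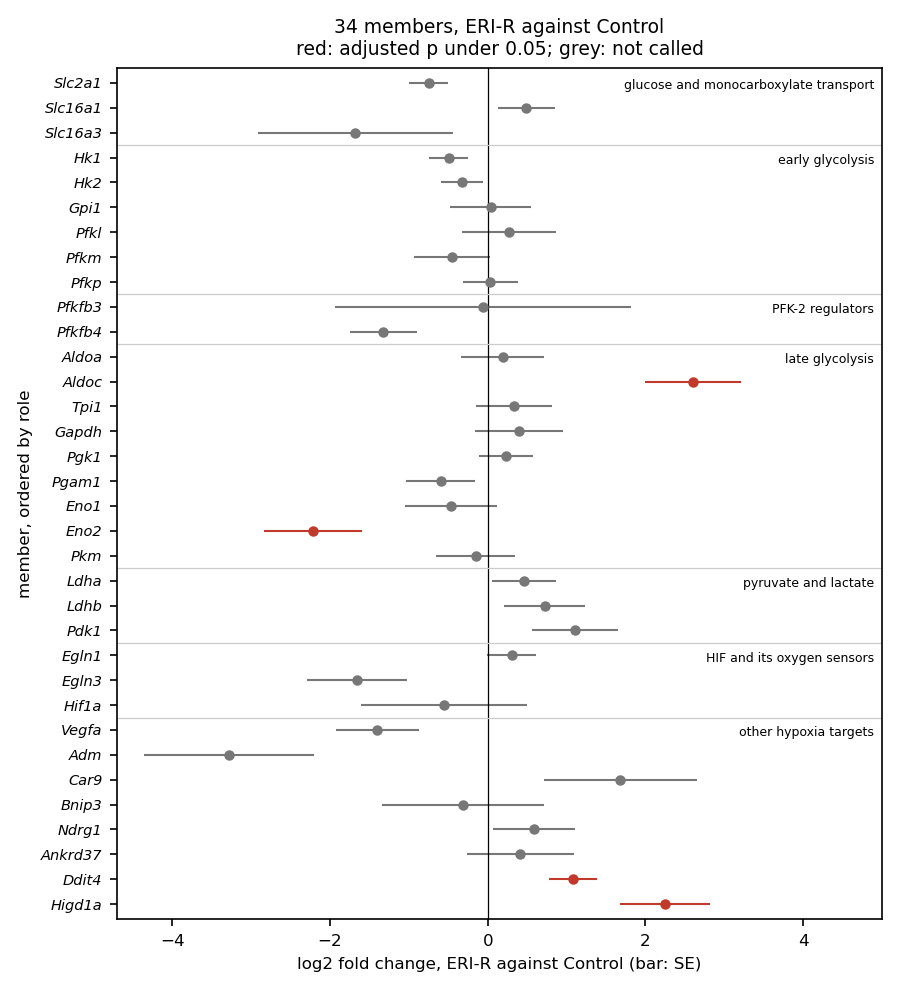
Log2 fold change of the 34 members in ERI-R against Control (x axis, bars are the standard error of the edgeR fit over 12 libraries), ordered by role on the y axis, with red for adjusted p under 0.05. The 3 members called higher are Aldoc, Ddit4 and Higd1a, the member called lower is Eno2, and the other 30 are grey.

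Among the transporters, Slc2a1 (GLUT1, the main glucose importer of most tumour cells; chr4:119108711-119137983) was low in ERI-R. It read 115, 133 and 85.9 CPM in Control against 72.6, 60.7 and 65.0 in ERI-R, with 167, 115 and 151 in PAC-R beside 151, 131 and 153 in VIN-R. The 3 ERI-R libraries lay below all 9 others. The mean was 66.1 ± 6.02 CPM in ERI-R and 111 ± 23.7 in Control (SD, n = 3), and the log2 fold change of -0.75 (SE 0.25) missed the threshold (edgeR adjusted p = 0.059). Against PAC-R it fell by 1.13 on the log2 scale (SE 0.25, edgeR adjusted p = 0.0095) and against VIN-R by 1.14 (SE 0.25, edgeR adjusted p = 0.0083). Both calls held under all 14 alternatives, the 8 libraries with macrophage RNA among them.

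The 2 lactate carriers were not called in any comparison. Slc16a1 (MCT1) read 79.5 ± 14.1 CPM in Control and 112 ± 52.6 in ERI-R (SD, n = 3), with ERI-R 3 at 52.8 and ERI-R 1 and 2 at 154 and 128. Within the 8 libraries with macrophage RNA it was called higher in ERI-R (log2 fold change 1.04, SE 0.22, edgeR adjusted p = 0.012). Slc16a3 (MCT4, the exporter tied to high glycolysis) read 20.0, 43.0 and 10.9 CPM in Control, then 12.6, 10.3 and 0 in ERI-R, compared with 44.3, 20.8 and 4.86 in PAC-R alongside 13.8, 36.5 and 10.4 in VIN-R. ERI-R 3 had no count of it, where 3 counts would be 0.269 CPM of the total.

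The early enzymes, from hexokinase to phosphofructokinase, were not called in ERI-R against Control. Hk2, the hexokinase most often raised in tumours, read 81.4, 107 and 75.5 CPM in Control against 70.3, 58.1 and 82.3 in ERI-R, with 142, 122 and 89.6 in PAC-R beside 91.0, 121 and 96.6 in VIN-R. The ERI-R libraries overlapped Control and lay below all 6 PAC-R and VIN-R libraries, with log2 fold changes of -0.75 (edgeR adjusted p = 0.083) and -0.55 (edgeR adjusted p = 0.20). Hk1 stood at 114 ± 8.21 CPM in ERI-R and 161 ± 31.4 in Control (SD, n = 3), without overlap and without a call (-0.49, edgeR adjusted p = 0.21).

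Gpi1, the isomerase of the following step, and the 3 phosphofructokinase genes had log2 fold changes between -0.45 and 0.27 with 95% intervals that all spanned 0. Pfkp, the platelet isoform, read 99.9, 123 and 92.8 CPM in Control, then 169, 85.2 and 69.2 in ERI-R, compared with 148, 98.4 and 96.8 in PAC-R alongside 121, 120 and 103 in VIN-R, so the groups overlapped.

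Pfkfb3 and Pfkfb4 make fructose-2,6-bisphosphate, the strongest activator of phosphofructokinase, and differed from each other. Pfkfb4 read 7.80, 7.38 and 5.59 CPM in Control against 4.19, 2.59 and 1.47 in ERI-R, with 7.86, 6.24 and 9.34 in PAC-R beside 4.02, 7.13 and 7.38 in VIN-R. ERI-R lay below Control and PAC-R without overlap. It fell by 1.5 against PAC-R (SE 0.43, edgeR adjusted p = 0.032), a call that among the 6 fits without 1 library was kept only without ERI-R 1 (-1.92, adjusted p 0.018). Without ERI-R 2, ERI-R 3, PAC-R 1, PAC-R 2 or PAC-R 3 the change was between -1.65 and -1.06, with adjusted p of 0.098, 0.088, 0.081, 0.052 and 0.087. The call was also lost with the replicate number as a block (-1.53, adjusted p 0.053), with total counts (-1.31, 0.090), with no filter (adjusted p 0.079) and in the 8 libraries with macrophage RNA (-0.94, 0.13). Against Control it was -1.32 (SE 0.43, edgeR adjusted p = 0.053), and -1.74 (adjusted p 0.024) without ERI-R 1. Pfkfb3 had a log2 fold change of -0.06 with a 95% interval from -3.74 to 3.62. It read 157 and 103 CPM in ERI-R 1 and 2 and 2.74 in ERI-R 3, and was as divided in the other groups.

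In late glycolysis, Aldoc (aldolase C; chr11:78322968-78327781) was the member with the largest rise. It read 16.8, 15.2 and 5.51 CPM in Control, then 78.9, 37.2 and 112 in ERI-R, compared with 11.2, 4.72 and 13.7 in PAC-R alongside 12.3, 4.39 and 7.90 in VIN-R. All 3 ERI-R libraries lay above all 9 others. The mean was 76.1 ± 37.5 CPM in ERI-R and 12.5 ± 6.09 in Control (SD, n = 3), a log2 fold change of 2.61 (SE 0.61, edgeR adjusted p = 0.012). Against PAC-R it was 2.94 (SE 0.62, edgeR adjusted p = 0.0075) and against VIN-R 3.21 (SE 0.63, edgeR adjusted p = 0.0045). Within the 8 libraries with macrophage RNA the difference from Control was 2.60 (adjusted p 0.051), and between ERI-R 3 and Control 1, both without, it was 2.74.

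The ubiquitous aldolase Aldoa was not called (log2 fold change 0.19, edgeR adjusted p = 0.87). Of the summed TPM of both aldolases, Aldoc made up 10.1%, 7.4% and 10.7% in ERI-R 1 to 3 and between 0.5% and 1.5% in the other 9 libraries. Aldoa thus stayed the larger part in every library.

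Eno2 (gamma enolase, best known from neurons) was the member called lower. It read 1.95, 3.94 and 4.28 CPM in Control against 1.3, 0.229 and 0.631 in ERI-R, with 3.26, 2.78 and 1.94 in PAC-R beside 2.26, 3.84 and 1.70 in VIN-R. ERI-R lay below the other 9, from 17, 3 and 6 counts. The log2 fold change was -2.22 (SE 0.62, edgeR adjusted p = 0.029). The call was lost without Control 2 (-2.11, adjusted p 0.083), Control 3 (-2.03, 0.092), ERI-R 2 (-1.75, 0.072) or ERI-R 3 (-2.00, 0.080), and the value was -2.96 without ERI-R 1. Eno1, the major enolase, held at least 99.5% of the summed enolase TPM in every library and was not called (-0.47, edgeR adjusted p = 0.66). The other late enzymes (Tpi1, Gapdh, Pgk1, Pgam1 and Pkm) had log2 fold changes between -0.60 and 0.39 in ERI-R and none was called.

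Of the genes that handle pyruvate and lactate, none was called. Ldha, which turns pyruvate into lactate, read 986, 885 and 426 CPM in Control, then 987, 821 and 1358 in ERI-R, compared with 951, 542 and 1140 in PAC-R alongside 1035, 725 and 1250 in VIN-R, with all groups overlapping. Ldhb, the heart-type subunit, was 14.0 ± 2.85 CPM in Control and 23.1 ± 16 in ERI-R (SD, n = 3). Pdk1, which keeps pyruvate out of the mitochondrion by switching off pyruvate dehydrogenase, read 42.6, 63.9 and 21.3 CPM in Control against 158, 78.6 and 39.1 in ERI-R, with 60.4, 34.2 and 26.1 in PAC-R beside 51.6, 39.1 and 38.5 in VIN-R. ERI-R 1 and 2 lay above all Control libraries and ERI-R 3 did not (log2 fold change 1.11, edgeR adjusted p = 0.19). Without ERI-R 3, Pdk1 was called (1.61, adjusted p 0.044).

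Hif1a mRNA read 160, 348 and 305 CPM in Control, then 304, 240 and 10.4 in ERI-R, compared with 548, 407 and 52.9 in PAC-R alongside 224, 517 and 102 in VIN-R. The 4 libraries without macrophage RNA lay below the other 8, with ERI-R 3 lowest of the 12, and no comparison was called. The oxygen sensors differed. Egln1 (PHD2, the main HIF hydroxylase) was 67.1 ± 18.6 CPM in Control and 82.8 ± 17.7 in ERI-R (SD, n = 3). Egln3 (PHD3, itself a HIF target) was 56.7 ± 19.8 in Control and 18 ± 18.1 in ERI-R, a log2 fold change of -1.66 that was not called (edgeR adjusted p = 0.10). Of the summed TPM of the 2, Egln3 made up 34.1%, 15.8% and 9.3% in ERI-R 1 to 3 and between 40.2% and 60.8% in the other 9 libraries.

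The other hypoxia targets went both ways in ERI-R. Ddit4 (REDD1, an inhibitor of mTORC1 induced by low oxygen and other stress; chr10:59949669-59951834) read 64.7, 60.9 and 59.2 CPM in Control against 127, 104 and 159 in ERI-R, with 53.7, 63.6 and 82.3 in PAC-R beside 77.1, 38.7 and 64.5 in VIN-R. The 3 ERI-R libraries lay above all 9 others. The log2 fold change was 1.08 against Control (SE 0.30, edgeR adjusted p = 0.030), 0.97 against PAC-R (edgeR adjusted p = 0.049) and 1.11 against VIN-R (edgeR adjusted p = 0.026). The call against Control was lost without Control 1 (1.19, adjusted p 0.067), Control 2 (1.05, 0.10), Control 3 (1.03, 0.11) or ERI-R 1 (1.11, 0.054). It was also lost with no filter (1.05, 0.091) and in the 8 libraries with macrophage RNA (1.04, 0.070). Against PAC-R it was lost without any 1 of the 6 libraries (0.82 to 1.14, adjusted p from 0.052 to 0.19), with the replicate block (0.95, 0.054), with no filter (0.92, 0.16) and in the 8 libraries (1.08, 0.060). Against VIN-R it was lost without ERI-R 1 (1.13, 0.054), VIN-R 2 (0.86, 0.090) or VIN-R 3 (1.15, 0.064), with no filter (1.04, 0.097) and in the 8 libraries (1.09, 0.057).

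Higd1a, a mitochondrial inner membrane protein induced by hypoxia (chr9:121848563-121858362), read 18, 24.1 and 10.1 CPM in Control, then 45.8, 45.9 and 157 in ERI-R, compared with 26.3, 14.4 and 31.8 in PAC-R alongside 26.7, 14.4 and 28.5 in VIN-R. ERI-R lay above the other 9, with ERI-R 3 far above ERI-R 1 and 2. The log2 fold change was 2.25 against Control (SE 0.57, edgeR adjusted p = 0.018), and the call was lost without Control 3 (1.96, adjusted p 0.080) and in the 8 libraries with macrophage RNA (1.53, 0.057). Without ERI-R 3 it was 1.54 and still called (adjusted p 0.037). Against VIN-R it was 1.83 (SE 0.56, edgeR adjusted p = 0.043), lost without ERI-R 3 (1.11, 0.12), VIN-R 1 (1.93, 0.10), VIN-R 2 (1.57, 0.14) or VIN-R 3 (1.99, 0.082) and in the 8 libraries (1.25, 0.10). Against PAC-R it was 1.78 (SE 0.56, edgeR adjusted p = 0.0501) and was not called.

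Vegfa, the main angiogenic growth factor, read 135, 146 and 202 CPM in Control against 116, 43.5 and 23.5 in ERI-R, with 176, 226 and 118 in PAC-R beside 191, 202 and 119 in VIN-R. ERI-R lay below the other 9 libraries, with a log2 fold change of -1.40 against Control (SE 0.52, edgeR adjusted p = 0.093). It was called without ERI-R 1 (-2.24, adjusted p 0.0072).

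Adm (adrenomedullin, a vessel-relaxing peptide) was close to its floor in ERI-R, with 6, 1 and 0 counts. It read 1.59, 3.52 and 0.612 CPM in Control, then 0.457, 0.0763 and 0 in ERI-R, compared with 3.55, 0.843 and 1.42 in PAC-R alongside 6.69, 1.55 and 4.80 in VIN-R. ERI-R lay below the other 9. It fell by 4.47 against VIN-R (SE 1.10, edgeR adjusted p = 0.015), a call lost without ERI-R 2 (-4.09, adjusted p 0.062) and in the 8 libraries with macrophage RNA (-3.82, 0.078). Without ERI-R 1 it was -6.36 (adjusted p 0.011). Against PAC-R the value was -3.30 (edgeR adjusted p = 0.058), and with the replicate block it was called (-3.43, adjusted p 0.047). Against Control the value was -3.28 (SE 1.08, edgeR adjusted p = 0.057), and it was called without ERI-R 1 (-5.14, 0.024).

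Car9, the carbonic anhydrase widely read as a hypoxia marker, read 3.83, 20.4 and 3.15 CPM in Control against 50.1, 13.2 and 24.5 in ERI-R, with 12.5, 3.62 and 1.64 in PAC-R beside 10.5, 3.11 and 1.99 in VIN-R. ERI-R overlapped Control through Control 2 and lay above all 6 PAC-R and VIN-R libraries, and no comparison was called (edgeR adjusted p = 0.28, 0.15 and 0.12 against Control, PAC-R and VIN-R). The mitophagy receptor Bnip3 and the stress genes Ndrg1 and Ankrd37 overlapped Control, with log2 fold changes of -0.32, 0.59 and 0.41.

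**Figure D2:**
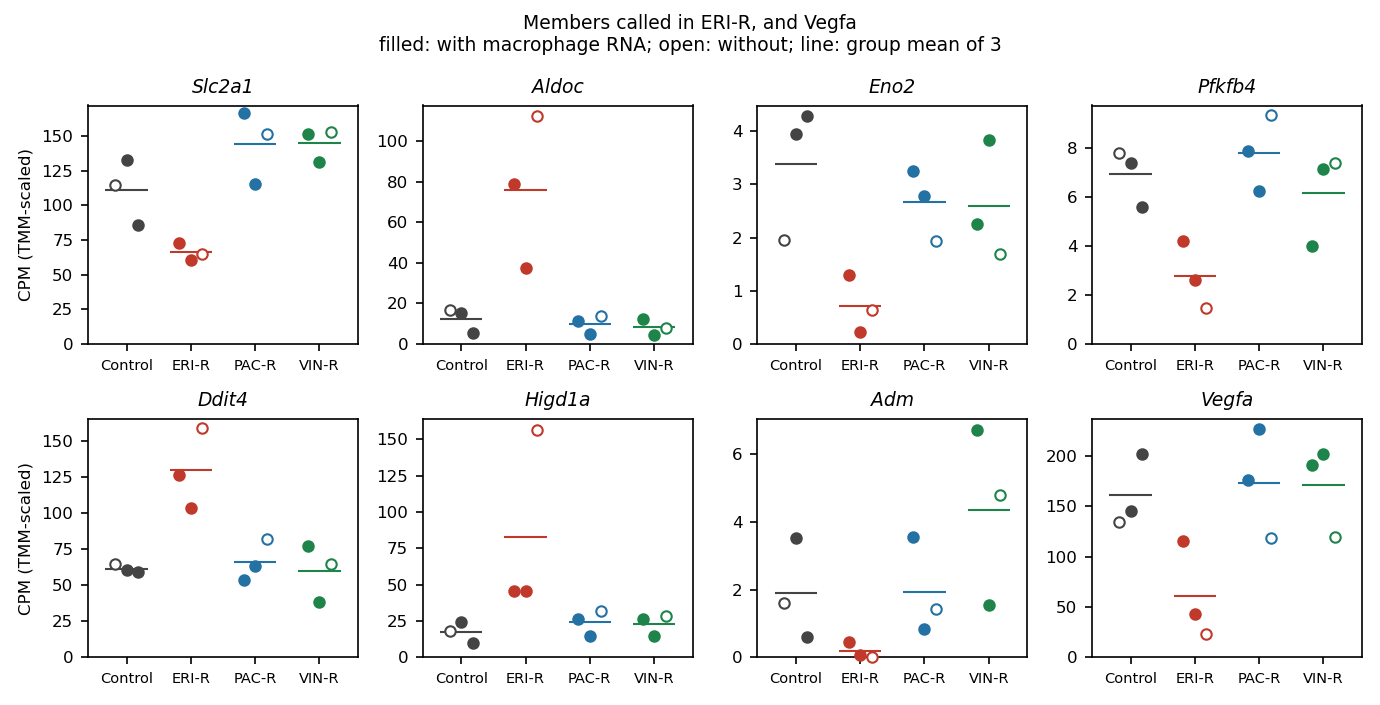
TMM-scaled CPM (y axes, from 0) of the 7 members called in a comparison with ERI-R and of Vegfa in each of the 12 libraries by group, with filled points for libraries with macrophage RNA, open points for those without and a line at each group mean of 3. Aldoc, Ddit4 and Higd1a sit above the other 9 libraries in ERI-R, and Slc2a1, Eno2, Adm and Vegfa sit below them.

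Between the derivatives, ERI-R differed from PAC-R in 4 members (Aldoc and Ddit4 higher, Slc2a1 and Pfkfb4 lower), beside 18.7% of all genes (9.19% higher, 9.55% lower). It differed from VIN-R in 5 (Aldoc, Ddit4 and Higd1a higher, Slc2a1 and Adm lower), beside 19.3% (9.55% higher, 9.74% lower). The median log2 fold change of the members was -0.16 and -0.34, against -0.05 and -0.03 over all genes tested. With macrophage RNA as a term, 11 and 8 members were called, beside 29.4% and 29.7%, with DESeq2 9 and 9, beside 23.3% and 24.0%, and in the 8 libraries with macrophage RNA 3 and 3, beside 22.8% and 24.0%. Leaving out 1 library gave 2 (without PAC-R 1, 2 or 3) to 8 (without ERI-R 1) against PAC-R, and 3 (without VIN-R 2 or 3) to 8 (without ERI-R 1) against VIN-R. Against PAC-R, 1854, 1946 and 2287 of all genes were called without PAC-R 1, 2 and 3, and 2526 without ERI-R 1. Against VIN-R, 2262 and 2231 were called without VIN-R 2 and 3, and 2651 without ERI-R 1. These comparisons share the ERI-R libraries with each other and with the comparison with Control.

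PAC-R and VIN-R showed no called member against Control or against each other. Their libraries overlapped for all 34 members, where 7.58%, 8.55% and 3.20% of all genes did not overlap between PAC-R and Control, VIN-R and Control, and PAC-R and VIN-R. The edgeR test called 0.0% of all genes in these 3 comparisons, with 245, 381 and 156 genes (1.72%, 2.68% and 1.10%) and no member at an unadjusted p under 0.05. DESeq2 called 24, 36 and 5 genes (0.169%, 0.253% and 0.0351%) and no member. Slc2a1 had a log2 fold change of 0.38 in PAC-R (95% interval -0.11 to 0.86) and 0.39 in VIN-R (-0.10 to 0.87). Aldoc stood at -0.34 (-1.48 to 0.80) and -0.61 (-1.75 to 0.54), and Hk2 at 0.42 (-0.10 to 0.94) and 0.23 (-0.30 to 0.75). For Adm in VIN-R the value was 1.19 with an interval from -0.62 to 2.99. Between PAC-R and VIN-R the interval for Slc2a1 ran from -0.49 to 0.47 and that for Aldoc from -0.87 to 1.41. Differences inside these intervals were not excluded here.

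Genes around the members were read from lists, in ERI-R against Control, where 9.51% of all genes tested rose and 9.69% fell. Of the other HIF machinery, 1 of 13 tested genes rose and 2 fell. Epas1, which encodes HIF-2α, read 2.24, 2.43 and 1.57 CPM in Control, then 28.7, 21.7 and 18.1 in ERI-R, compared with 3.64, 2.61 and 4.56 in PAC-R alongside 3.77, 3.20 and 3.77 in VIN-R, a log2 fold change of 3.45 (SE 0.35, edgeR adjusted p = 0.00035). It lay above the other 9 in libraries with and without macrophage RNA. Cited2, which competes with HIF for its coactivator, read 132, 160 and 135 CPM in Control and 53.6, 31.6 and 36.1 in ERI-R and fell by 1.82 (edgeR adjusted p = 0.0016). Arnt2, a partner subunit found mainly in neural tissue, fell from 9.56 ± 1.37 to 0.153 ± 0.153 CPM (SD, n = 3, edgeR adjusted p = 0.00064). It also lay below all Control libraries in PAC-R (2.01, 2.61 and 4.41 CPM) and VIN-R (3.77, 3.11 and 5.46). Those log2 fold changes of -1.66 and -1.21 were not called.

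Of 39 further HIF targets tested, 5 rose and 4 fell, 9 in all beside 19.2% of all genes, so the share was near that of all genes. Bhlhe41, a transcriptional repressor, rose by 2.89 (edgeR adjusted p = 0.0018), and Flt1, a VEGF receptor, rose by 2.99 (edgeR adjusted p = 0.010) from 34.7 ± 14.5 to 275 ± 113 CPM (SD, n = 3). Ppp1r3c, a glycogen-targeting subunit of a phosphatase, read at most 0.175 CPM in Control and 8.53, 8.24 and 9.05 in ERI-R (edgeR adjusted p = 0.0033). The secreted Stc1 read 3.90, 11.5 and 3.5 CPM in Control and at most 0.229 in ERI-R, and Igfbp3, a binding protein of insulin-like growth factors, 29.4, 28.8 and 9.62 against 1.60, 0.229 and 0. Both fell (edgeR adjusted p = 0.0015 and 0.0050).

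Among the remaining glycolysis genes, 1 of 15 rose and 3 fell. Adpgk, a kinase that phosphorylates glucose with ADP, fell by 1.22 (edgeR adjusted p = 0.0096), and Eno3, the muscle enolase, fell by 2.78 (edgeR adjusted p = 0.010). Fbp1, an enzyme of glucose synthesis, read 2.44, 0.992 and 3.26 CPM in ERI-R and was at 0 in 8 of the other 9 libraries (edgeR adjusted p = 0.011). Around pyruvate, 3 of 31 rose and 1 fell. Pcx, which feeds pyruvate into oxaloacetate, rose by 3.23 (edgeR adjusted p = 0.0040) and the kinase gene Pdk3 by 1.20 (edgeR adjusted p = 0.0035), while the opposing phosphatase gene Pdp1 fell by 1.71 (edgeR adjusted p = 0.044). In the pentose phosphate branch Rpia rose and Pgd fell, 2 of 9, and of 15 regulators Mtor and Tsc1 fell and none rose. No gene of these lists was called in PAC-R or VIN-R.

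Some members also differed by macrophage RNA, as did many of all genes tested. The libraries were divided by a measured value, so these are levels without a test. Pfkfb3 lay at 3.11 CPM in Control 1, 2.74 in ERI-R 3, 2.32 in PAC-R 3 and 2.44 in VIN-R 3. With macrophage RNA it read 203 and 67.7 in Control 2 and 3, 157 and 103 for ERI-R, 413 and 180 for PAC-R, and 48.0 and 302 for VIN-R, so all 8 lay above all 4. Of the summed TPM of Pfkfb3 and Pfkfb4, Pfkfb4 made up 79.5%, 52.3%, 85.4% and 88.7% in the 4 libraries without and between 3.3% and 11.2% in the 8 with. Hif1a ran from 10.4 to 160 CPM without and from 224 to 548 with. Bnip3 read 18.9, 4.42, 16.4 and 23.5 CPM without, in the same order. With macrophage RNA it read 99.2 and 33.9 in Control against 82.4 and 35.2 in ERI-R, with 138 and 59.2 in PAC-R beside 111 and 92.9 in VIN-R.

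These 3 of 34 members lay above in all 8 libraries, beside 13.3% of all genes, and 5 lay below (Pfkl, Pfkm, Aldoa, Eno1 and Pkm), beside 8.18%. Within every group, 4 members were above in both libraries with macrophage RNA (the 3 and Vegfa) and 11 below, beside 23.7% and 20.3% of all genes. The 11 were the isomerase and kinase genes of the early steps Hk1, Gpi1, Pfkl and Pfkm, the late enzymes Aldoa, Tpi1, Gapdh, Pgam1, Eno1 and Pkm, and Ldha. Without Control 1, 9 members lay below in place of 5, and without Control 1 or Control 3, 7 were above within every group in place of 4. No share of all genes is given for these reduced sets, so the 9 and 7 cannot be set against 8.18% and 23.7%.

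Pkm, the last enzyme of glycolysis, read 3042, 3201, 3956 and 3800 CPM in the libraries without (Control 1, then the third of ERI-R, of PAC-R and of VIN-R). With macrophage RNA it read 2048 and 1402 in Control, then 1384 and 1252 in ERI-R, compared with 1997 and 1582 in PAC-R alongside 2404 and 1793 in VIN-R. Eno1 read 2112, 2052, 3086 and 2625 without, and 1553 and 1095, 731 and 663, 1327 and 1013, and 1902 and 978 with, in the same order of groups. Aldoa read 863, 1399, 1222 and 1087 without, and 778 and 413, 565 and 380, 797 and 461, and 826 and 623 with. For all 3 the 4 libraries without macrophage RNA were the highest, most narrowly in Control.

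Pfkl, the liver-type phosphofructokinase, read 185, 291, 259 and 224 CPM without, and 157 and 73.0, 129 and 80.9, 137 and 81.5, and 136 and 84.2 with. Pfkm, the muscle type, read 38.2, 31.0, 45.8 and 37.4 without, and 22.5 and 20.7, 16.8 and 11.7, 20.0 and 19.6, and 28.5 and 17.8 with. Pfkl made up 52.7% to 62.4% of the phosphofructokinase TPM without and 33.3% to 46.4% with, and Pfkp took the larger part in 7 of the 8. The count of members wholly below depended on the unit: it was 5 on TMM-scaled CPM, 3 on CPM of total counts and 1 on TPM, and the count below within every group was 11, 9 and 3. The shares of 8.18% and 20.3% of all genes are on TMM-scaled CPM, and none is given for the other units. The mitochondrial share of counts was 1.5% to 2.45% without and 3.22% to 4.35% with. The parts of macrophage RNA and of mitochondrial share in these levels were not tested.

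**Figure D3:**
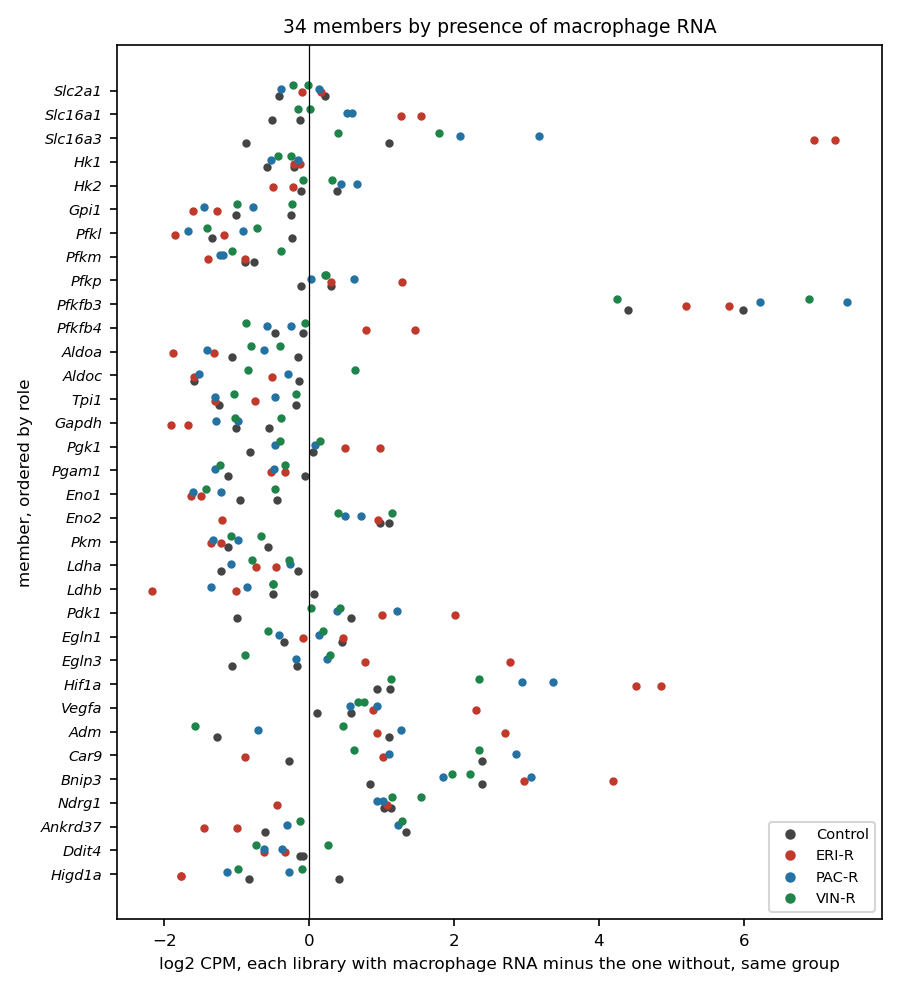
Difference in log2 CPM between each of the 2 libraries with macrophage RNA of a group and that group's library without it (x axis), for the 34 members ordered by role (y axis) and coloured by group. Pfkfb3, Hif1a, Bnip3 and Vegfa lie right of 0 in all 8 differences, and 11 enzymes from Hk1 to Ldha lie left of 0 in all 8.

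**Figure D4:**
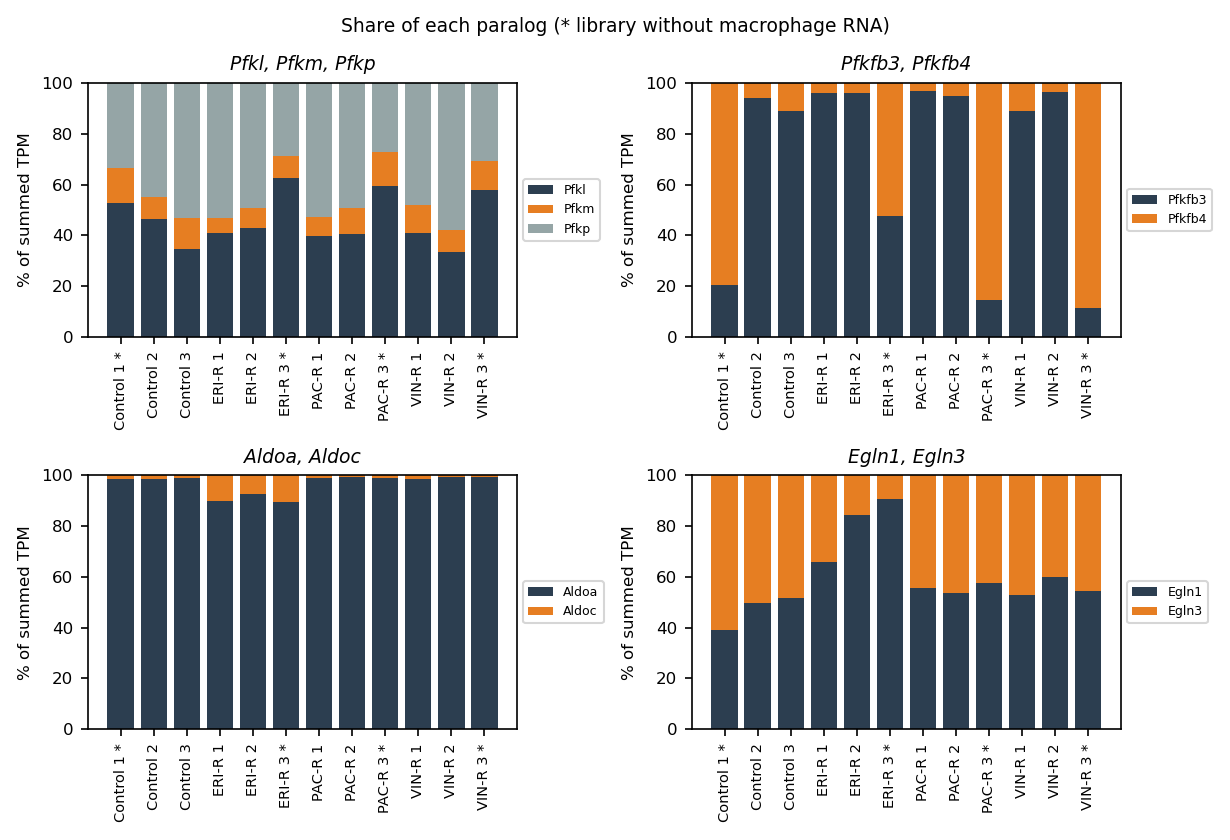
Share of each paralog in the summed TPM of its set (y axis, percent) in each of the 12 libraries, with a star for libraries without macrophage RNA. Pfkfb4 makes up at least 52.3% of its pair where macrophage RNA is absent and at most 11.2% elsewhere, and the Aldoc share is 7.4% to 10.7% in ERI-R and at most 1.5% elsewhere.

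Some genes of the surrounding lists divided in the same way. Nos2, the inducible nitric oxide synthase of activated macrophages, was at 0 in the 4 libraries without and between 55.6 and 783 CPM in the 8 with. Hmox1 (heme oxygenase) ran from 13.7 to 23.6 CPM without and from 210 to 670 with, and the hexokinase gene Hk3, known from white blood cells, from 0 to 0.148 without and from 11.8 to 167 with. Of the 39 further HIF targets, 7 lay above in all 8 libraries and 0 below, beside 13.3% and 8.18% of all genes. The other lists, of 9 to 31 genes, each had 1 to 3 above and 1 to 4 below.

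A second difference ran inside the groups. Each group holds 2 libraries with macrophage RNA, and these were set against each other: Control 2 against 3, ERI-R 1 against 2, PAC-R 1 against 2 and VIN-R 1 against 2. This comparison was chosen after the values were seen, and it is a description of 8 libraries with no test. The first-named library was higher for 31, 32, 31 and 24 of the 34 members, where it was higher for 56.7%, 55.2%, 57.1% and 48.7% of all genes tested. The members' median log2 differences were 0.77, 0.50, 0.56 and 0.47, and those of all genes 0.08, 0.07, 0.08 and -0.01.

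In all 4 groups together, 22 of 34 members were higher in the first-named library, beside 8.72% of all genes, and 1 (Ldhb) was lower, beside 6.03%. The 22 were Slc2a1, Gpi1, Pfkl, Pfkm, Pfkp, Aldoa, Aldoc, Tpi1, Gapdh, Pgk1, Pgam1, Eno1, Pkm, Ldha, Pdk1, Adm, Car9, Bnip3, Egln1, Egln3, Ndrg1 and Ankrd37. They thus took in 8 of the 9 late glycolytic genes, with Eno2 the exception. On CPM of total counts the number was 21 and on TPM 20. Without VIN-R 1 or VIN-R 2, which leaves 3 groups, it was 29. Agreement of 3 groups is easier to reach than of 4 for any gene. The 8.72% is for TMM-scaled CPM in 4 groups, and no share of all genes is given for these other numbers.

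Adm, Aldoc, Car9 and Pfkl were at least 1.5-fold higher in all 4 groups, 4 of the 46 genes (0.323% of those tested) that were. Car9 read 20.4 against 3.15 CPM in Control, 50.1 against 13.2 in ERI-R, 12.5 against 3.62 in PAC-R and 10.5 against 3.11 in VIN-R. The ratio ran from 3.30 to 6.33. Aldoc differed by 2.12 to 2.77-fold and Pfkl by 1.59 to 2.15-fold. Adm differed by 3.40 to 5.19-fold, in ERI-R from 6 counts against 1. Pdk1 read 63.9 against 21.3, 158 against 78.6, 60.4 against 34.2 and 51.6 against 39.1 CPM.

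Of the 39 further HIF targets, 14 were higher in the first-named library in all 4 groups and 0 lower, beside 8.72% and 6.03% of all genes, among them the collagen prolyl hydroxylases P4ha1 and P4ha2 and the mitophagy receptor Bnip3l. Of 31 pyruvate and citrate cycle genes 1 was higher and 4 were lower, and of 13 HIF machinery genes 1 and 0, against the same shares. Either HIF core stood in 81.3% of the 32 start windows of the 22 members and in 80% of the 15 windows of the other members. Taken singly, ACGTG stood in 16 of the 32 windows against 10 of the 15 (50% against 66.7%). GCGTG stood in 19 against 8 (59.4% against 53.3%). Some genes supply several windows, so windows are not independent, and these differences were not tested.

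The summed macrophage markers were higher in the first-named library in Control (3404 against 1298 CPM), ERI-R (1927 against 1256) and PAC-R (6620 against 2543), and lower in VIN-R (910 against 6210). The 3 members that lay above with macrophage RNA followed that turn in part: in VIN-R 1 against VIN-R 2 the log2 difference was -2.65 for Pfkfb3 and -1.21 for Hif1a and 0.25 for Bnip3. The mitochondrial share was lower in the first-named library in Control (3.45% against 4.09%), ERI-R (3.79% against 4.33%) and PAC-R (3.22% against 4.02%) and higher in VIN-R (4.35% against 3.85%). Neither ran the same way as the 22 members in all 4 groups, and the part of either in the difference was not tested.

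**Figure D5:**
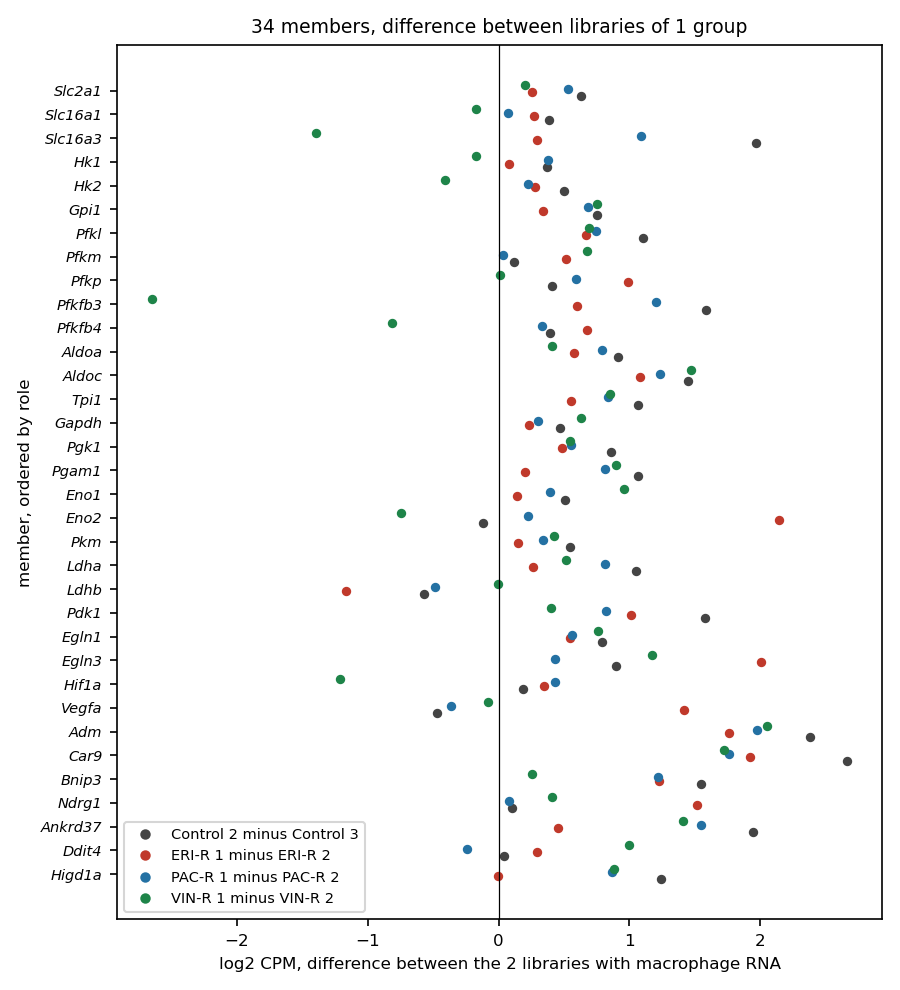
Difference in log2 CPM between the 2 libraries with macrophage RNA of each group (x axis, direction given in the legend) for the 34 members ordered by role (y axis). For 22 members all 4 points lie right of 0, and for Ldhb all 4 lie left of it.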

How the data were processed

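The authors deposited an RSEM table per library. Per the file headers, it holds an expected count, the estimated number of read pairs of a gene, and a TPM value, which the authors' tool scales per length. Libraries were made with a Kapa mRNA HyperPrep kit from 200 ng of RNA, per the labels' protocols. The submitters' processing notes name bcl2fastq 2.20.0.422, cutadapt 2.4, STAR 2.7.2b, RSEM 1.3.2 and GRCm38, and strand handling is not given in the sources used here. Symbols and positions came from GENCODE M21 (GRCm38) for 55480 of 55573 genes. For Aldoa the identifier that carries the counts was used, since a readthrough transcript shares its symbol.

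Expected counts were rounded (15.3% of values above 0 changed), filtered with filterByExpr, scaled by TMM and tested in 1 edgeR 4.0.16 quasi-likelihood fit (robust, R 4.3.3) of 12 libraries with 8 residual degrees of freedom, with Benjamini-Hochberg adjustment over 14226 genes. The script was tested on simulated data. Alternatives were DESeq2 1.42.0, total counts, 2 filters, a non-robust fit, a replicate block, a term for macrophage RNA (Lyz2 above 100 CPM), only the 8 libraries that have it, and each library left out. Same-numbered libraries deviated together, with all 3 correlations above 0.1, in 2 of the 6 pairs of groups, ERI-R with PAC-R (0.61 to 0.76) and PAC-R with VIN-R (0.22 to 0.92). In the other 4 pairs not all 3 lay above 0.1 (-0.86 to 0.74). Among these, ERI-R with VIN-R had 0.083, 0.59 and 0.67 for numbers 1, 2 and 3. This pairing comes from the data, since the labels give only numbers, and number 3 is the library without macrophage RNA in ERI-R, PAC-R and VIN-R. Intervals are log2 fold change ± 1.96 SE, and cover the spread the fit sees. A floor of 3 counts corresponds to 0.223 to 0.269 CPM. Members were named where called in any comparison, where the ranges by macrophage RNA did not overlap, or as one of 10 set genes, and from other lists the called genes with the largest change. Members and lists were chosen with earlier results of these data known. Reads shared between near-identical copies, such as pseudogenes of Gapdh, were split by RSEM's estimate, so levels of such genes are uncertain.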

Additional observations from a re-analysis of the deposited data

How the results depend on the processing

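The absence of called members in PAC-R and VIN-R, against Control and each other, held in all 14 alternatives of each comparison. In ERI-R the number of members called was 4 against Control, 4 against PAC-R and 5 against VIN-R. DESeq2 gave 7, 9 and 9, and a term for macrophage RNA 8, 11 and 8. The 8 libraries with macrophage RNA gave 2 against Control and 3 against VIN-R, and no filter gave 2 against PAC-R. With no filter, 2406 of all genes were called against PAC-R. Leaving out 1 library gave 1 to 7, 2 to 8 and 3 to 8, beside the numbers of all genes given above. For members below in all 8 libraries with macrophage RNA, total counts gave 3, TPM 1 and leaving out 1 library 5 to 9. Below within every group TPM gave 3, and above within every group leaving out 1 library gave 4 to 7. No shares of all genes are given beside these counts by unit and by library left out. The replicate block gave 5, 3 and 5 members called, beside 2666, 2604 and 2639 of all genes. It ended the calls of Eno2 against Control (-2.28), Ddit4 (0.95) and Pfkfb4 (-1.53) against PAC-R and Higd1a against VIN-R (1.73), and added Adm (-3.66) and Egln3 (-1.95) against Control, Adm (-3.43) against PAC-R and Car9 (2.79) against VIN-R. It changed no other call of a member. Members without a call changed sign against Control. With the replicate block Pfkl was -0.060, Pfkp -0.053 and Aldoa -0.077. In the 8 libraries Pfkl was -0.027, Aldoa -0.23 and Pfkfb3 0.056. With the macrophage term Pfkp was -0.0062. Pfkfb3 was 0.0057 with DESeq2, 0.17 with total counts and 0.017 with no filter. Without 1 library the ranges were -0.26 to 0.64 for Pfkl, -0.42 to 0.41 for Pfkp, -0.40 to 0.56 for Aldoa, -0.57 to 0.23 for Pkm, -1.31 to 0.62 for Bnip3, -0.74 to 1.3 for Pfkfb3 and -1.08 to 0.15 for Hif1a. The causes were not tested. The within-group alternatives were chosen after seeing the data.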
